A study of Mus musculus with 6 samples.

Results

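A set of 26 motile cilia and axoneme genes was followed in whole mouse ovary at postnatal day 14. The genes were chosen by symbol from the 37924 genes of the deposited expression table. The patterns for dynein light and intermediate chains, radial spoke heads and tektins gave 3, 2, 7 and 5 genes, and 9 genes were named singly. The pattern for dynein heavy chains in their newer spelling, Dnah, gave 0 genes because the table spells them Dnahc; the 13 Dnahc genes are described separately. The set was proposed because Fam183b and Dnajb13 were already known as large decreases in these libraries. The difference between genotypes within the set is therefore a description, and no support is drawn from its test results.

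The mutant ovaries, called cKO, were homozygous for a floxed allele and carried Gdf9-iCre, a Cre recombinase under an oocyte promoter. Control ovaries had the same homozygous floxed allele and no Cre. All mice were of the strain C57BL/6J/129S7/SvEvBrd. Each genotype had 3 RNA sequencing libraries, and a library was made from a pool of ovaries of 3 mice (1 per mouse), so that differences between single mice are averaged within a pool.

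Motile cilia beat by means of an axoneme, a ring of microtubule doublets around a central pair. Outer and inner dynein arms slide the doublets, radial spokes link them to the central pair, tektins stiffen the doublet wall and a coiled-coil ruler sets the repeat of the arms and spokes. Foxj1 is the transcription factor that switches on this programme. In the female tract such cilia are carried by the multiciliated cells of the oviduct, whereas granulosa and stromal cells of the ovary carry a primary cilium, which is built by intraflagellar transport and lacks the motile apparatus.

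Values are FPKM, fragments per kilobase of exon scaled to library size, which is a level per gene length. Depth was estimated from the smallest values in the table as about 22500000 to 24900000 fragments in cKO pools and 19600000 to 22700000 fragments in control pools, so 1 FPKM in a gene of 2 kb stood for about 39.2 to 49.9 fragments. Between 13170 and 13649 genes reached 1 FPKM in a pool. The summed level of 8 adipose markers was 16.8 to 17.8 FPKM in cKO pools. It was 41.1 FPKM in control pool 3 and 15.5 and 16.2 FPKM in the other control pools. Most of each cKO sum was Plin1, at 13.9, 10.6 and 11.8 FPKM in cKO pools. In control pools Plin1 had 6.18, 6.79 and 4.95 FPKM. Of the 8, 6 were highest in control pool 3, with Fabp4 at 15.2 FPKM and Cfd at 14.0 FPKM making up most of its sum; Plin1, at 4.95 FPKM, was lowest there of all pools, and Plin4, at 0.666 FPKM, was the lowest control. Pool 2 of the cKO ovaries had the highest summed level of 8 ovarian surface epithelium markers, 192 FPKM, against 88.1 and 142 FPKM in the other cKO pools and 114 to 117 FPKM in control pools.

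Among the 26 genes, 2 were far lower in cKO ovaries, Fam183b and Dnajb13. The other 24 genes had overlapping cKO and control values. All 26 genes were above 0 in at least 1 pool, but only 3 averaged 10 FPKM or more over the 6 pools, 9 averaged at least 1 FPKM and 14 averaged under 0.5 FPKM, the level below which genes were not tested. In the limma fit across 14934 genes, 2.09% of genes were called lower in cKO ovaries and 2.24% higher at an adjusted p below 0.05. Of the 12 genes of the set that entered this fit, 2 were called lower, 0 higher and 10 neither; because the set was chosen with this comparison known, nothing is read from that share. Among all tested genes, 30.0% had cKO and control values without overlap, in either direction. In the set, Fam183b and Dnajb13 did, which is 2 of the 12 tested genes, and 0 of the 14 untested genes did.

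The calls across all genes, 334 higher and 312 lower, rested on all 6 libraries. With log2 values centred on each library's median the split was 254 higher and 577 lower. Leaving out 1 pool gave 0 to 307 genes higher and 2 to 353 lower, and the smallest counts, at most 1 higher and 4 lower, came without cKO pool 1, control pool 1 or control pool 2. Without cKO pool 2 the counts were 40 higher and 38 lower, and without cKO pool 3 they were 209 and 176.

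**Figure D1:**
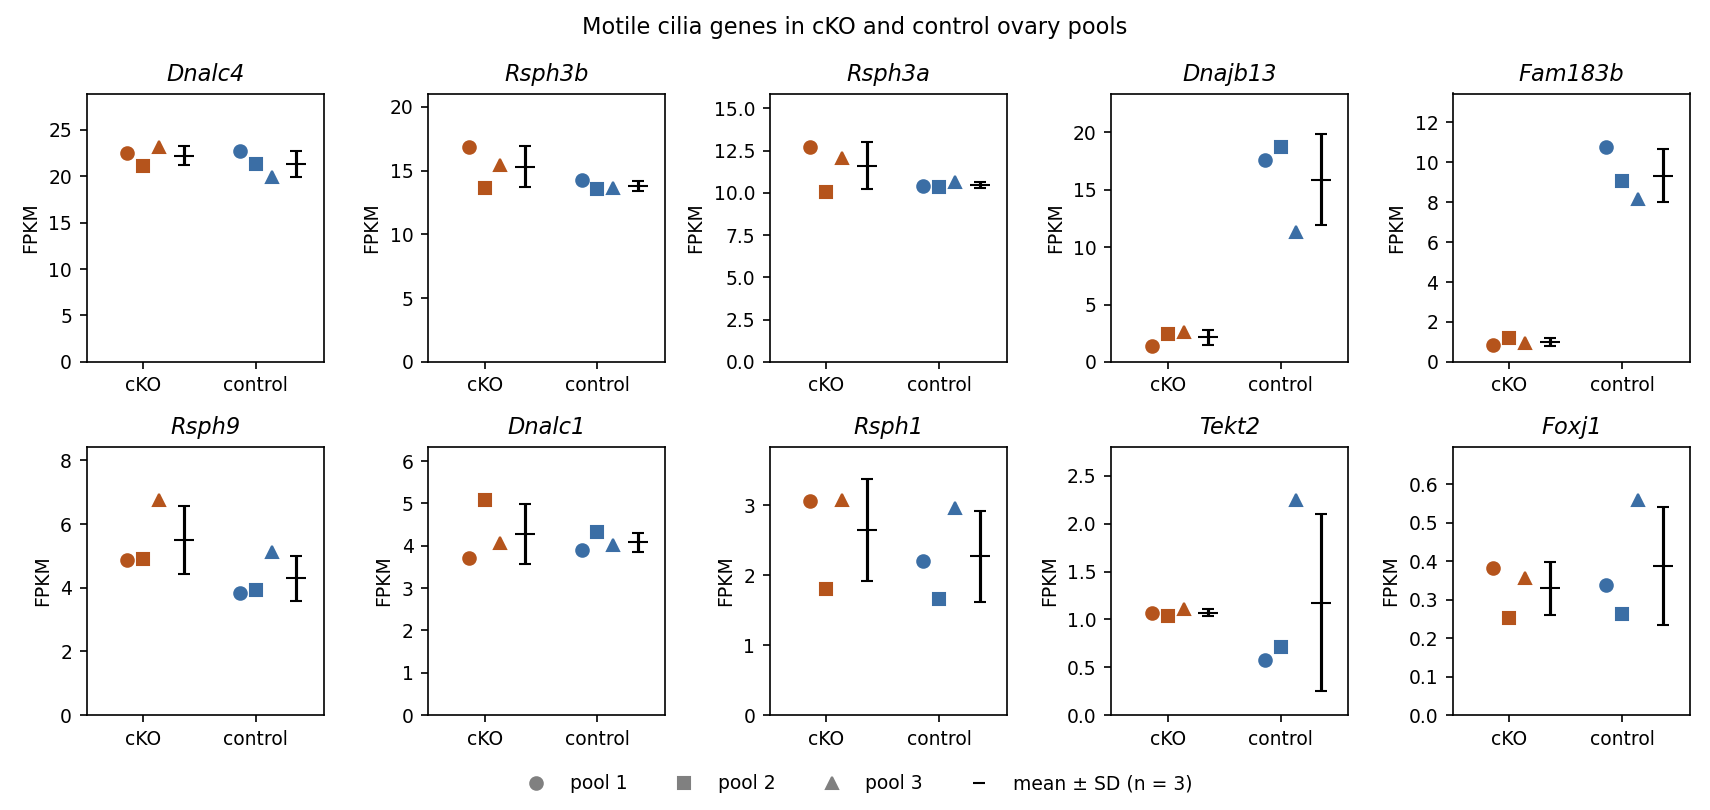
FPKM (linear vertical axes from 0, a separate scale per panel) of the 9 genes of the set averaging at least 1 FPKM and of Foxj1, in cKO pools left of control pools. Symbols are pools 1 to 3 and bars are the mean ± SD (n = 3); only in the Dnajb13 and Fam183b panels do all cKO pools lie below all control pools.

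Fam183b, a gene of ciliated cells now also named Cfap144, lies at chr11:58792797-58801960 on the minus strand (mm10) and has 567 exon bases in GENCODE M21. Its level was 0.843, 1.20 and 0.940 FPKM in cKO pools 1 to 3, against 10.8, 9.09 and 8.16 FPKM in control pools 1 to 3. Every cKO pool was below every control pool, with cKO pool 2 the highest of its group and control pool 3 the lowest of its own. The mean was 0.994 ± 0.184 FPKM in cKO ovaries and 9.34 ± 1.32 FPKM in control ovaries (SD, n = 3 each), which is 9.39-fold higher in control. The log2 change of FPKM + 1 was -2.37 (SE 0.13), the 5th lowest of all tested genes. As the set was proposed for this decrease, nothing is read from that rank. Because the gene is short, these levels stood for an estimated 8, 11 and 10 fragments in cKO pools and 102, 82 and 67 in control pools. In bulk ovary, fewer cells of a type and less RNA per cell cannot be told apart.

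Dnajb13, a radial spoke protein with a J domain, lies at chr7:100501716-100514960 on the minus strand (mm10) and has 2732 exon bases. Its level was 1.41, 2.40 and 2.64 FPKM in cKO pools, against 17.6, 18.7 and 11.3 FPKM in control pools. The groups did not overlap, and control pool 3 was again the lowest control. The mean was 2.15 ± 0.649 FPKM in cKO ovaries and 15.9 ± 3.99 FPKM in control ovaries (SD, n = 3 each), 7.40-fold higher in control. The log2 change was -2.42 (SE 0.22), the 4th lowest of all tested genes. With 1 pool left out at a time the log2 change was -2.63 to -2.24, and the gene was not called without cKO pool 1, control pool 1 or control pool 2. As the set was proposed for this difference, nothing is read from the gene's rank or from its being called or not.

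The difference at Dnajb13 can be set beside the gene it overlaps. Dnajb13 shares 305 exon bases with Ucp2, a mitochondrial carrier gene on the opposite strand, and the strand setting of the library and of the counting is not given in the sources used here. Ucp2 had 196, 147 and 203 FPKM in cKO pools, against 283, 276 and 192 FPKM in control pools. Its groups overlapped, and its mean in cKO ovaries was 0.727 of that in control ovaries (log2 change -0.45, SE 0.18, limma adjusted p = 0.184). How many Ucp2 fragments were counted for Dnajb13 was not tested. Of the 7 genes of the table within 100 kb of Dnajb13, 5 averaged at least 0.5 FPKM, and their cKO means ranged from 0.727 to 1.10 of the control means. The lowest adjusted p among these was 0.084, for C2cd3, a centriole protein gene needed for ciliogenesis, at 0.778 of control. Within 100 kb of Fam183b, 12 genes were in the table and 3 averaged at least 0.5 FPKM: Gm12258 at 1.18, 2810021J22Rik at 1.14 and Zfp39 at 0.934 of control. None of these 8 neighbours passed the test.

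**Figure D2:**
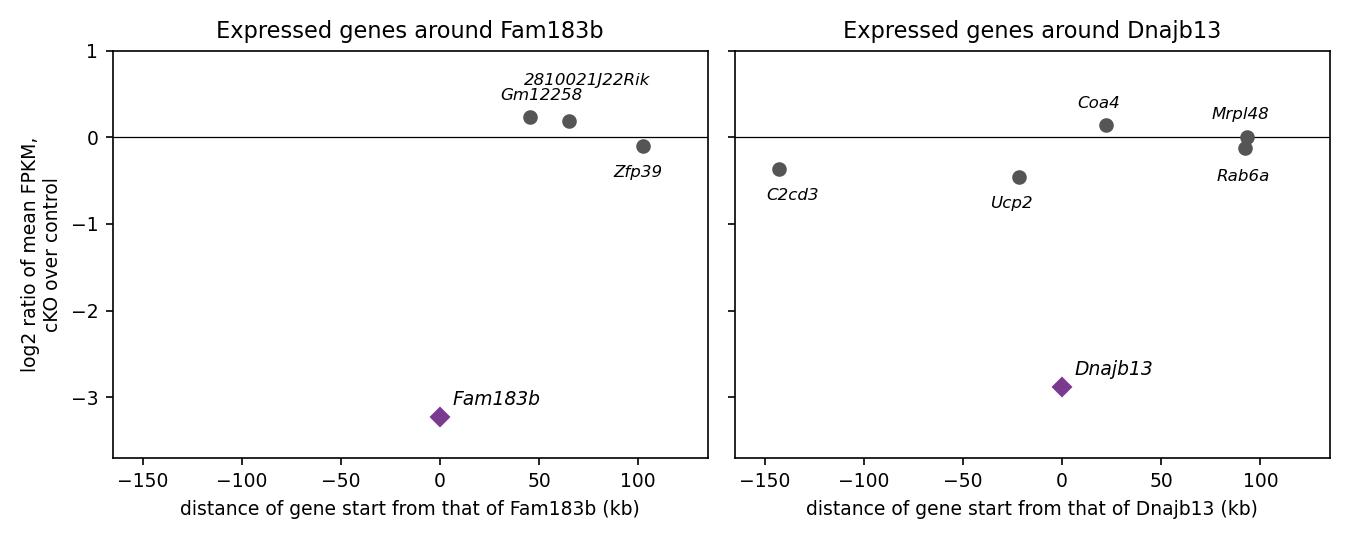
Log2 ratio of mean FPKM, cKO over control, of Fam183b (left), Dnajb13 (right) and the expressed genes with any part within 100 kb of each (grey), against the distance in kb between gene starts. Fam183b and Dnajb13 lie near -3, and their neighbours stay close to 0, at ratios of 0.727 to 1.18.

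The promoters of these genes are shown because they are the members that differed; capitals mark GTTGCC, the core of the X-box bound by RFX factors, which act with Foxj1 on ciliary genes. The sequences are from RefSeq (GRCm38.p6), minus strand, from 250 bases before to 50 bases after the start, at chr11:58801911-58802210 and chr7:100514766-100515065.
Fam183b: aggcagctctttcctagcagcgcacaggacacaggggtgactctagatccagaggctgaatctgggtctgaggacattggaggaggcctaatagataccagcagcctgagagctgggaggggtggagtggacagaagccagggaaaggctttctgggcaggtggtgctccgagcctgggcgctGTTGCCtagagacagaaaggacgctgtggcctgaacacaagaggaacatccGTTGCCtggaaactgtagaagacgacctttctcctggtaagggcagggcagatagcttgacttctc
Dnajb13: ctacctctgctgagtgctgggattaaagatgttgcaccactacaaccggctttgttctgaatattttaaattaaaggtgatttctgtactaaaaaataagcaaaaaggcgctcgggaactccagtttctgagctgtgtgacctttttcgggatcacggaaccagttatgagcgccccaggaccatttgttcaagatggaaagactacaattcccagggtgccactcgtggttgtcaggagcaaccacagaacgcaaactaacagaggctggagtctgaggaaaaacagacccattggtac

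The Fam183b window held GTTGCC at 2 places, which began 67 and 16 bases before the start, and the Dnajb13 window held it at 0 places on either strand. Both strands were searched for GTTGCC and for GTAAACA, a forkhead motif, and neither motif can overlap the other. GTTGCC was in 12.5% of 32851 RefSeq promoters of the same length, and in 9 of the 22 genes of the set that had an entry (40.9%). GTAAACA was in 3.65% of all promoters and in 1 of the 22, Tekt3. These are letter matches in a window and do not show binding.

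Foxj1, the regulator of the programme, was low in both genotypes. It had 0.381, 0.252 and 0.356 FPKM in cKO pools, against 0.339, 0.262 and 0.557 FPKM in control pools, an estimated 14 to 22 fragments in cKO pools and 14 to 27 in control pools. The groups overlapped, with control pool 3 the highest of all 6. The gene averaged under 0.5 FPKM and was not tested.

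The dynein arm chains of the set ran from a light chain above 20 FPKM to intermediate chains below 0.5 FPKM. Dnalc4 (Dnal4 in GENCODE), a dynein light chain, had 22.5, 21.1 and 23.1 FPKM in cKO pools, against 22.7, 21.3 and 20.0 FPKM in control pools, the highest mean of the set. Its pools overlapped and its log2 change was 0.06 (SE 0.08). Dnalc1 (Dnal1), an outer arm light chain, had 3.71, 5.07 and 4.06 FPKM in cKO pools, against 3.91, 4.33 and 4.01 FPKM in control pools. Its groups also overlapped, with a log2 change of 0.05 (SE 0.12). Dnalc1 shares 384 exon bases with Pnma1 on the opposite strand. The intermediate chains of the outer arm, Dnaic1 and Dnaic2, averaged 0.152 and 0.417 FPKM over the 6 pools, and Dnali1, a light intermediate chain of the inner arm, averaged 0.316 FPKM. Dnaic1 was mostly in 1 library, at 0.489 FPKM in cKO pool 1 and at most 0.130 FPKM elsewhere.

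Radial spoke genes did not share the difference of Dnajb13. Rsph3b, a spoke stalk protein, had 16.8, 13.7 and 15.5 FPKM in cKO pools, against 14.2, 13.5 and 13.7 FPKM in control pools. Rsph3a had 12.7, 10.04 and 12.1 FPKM in cKO pools, against 10.4, 10.3 and 10.7 FPKM in control pools. Both pairs of groups overlapped, with log2 changes of 0.14 (SE 0.09) for Rsph3b and 0.13 (SE 0.10) for Rsph3a. The longest coding transcripts of Rsph3a and Rsph3b are 99.2% identical over 2186 aligned bases, so the way the counting divided fragments between them is uncertain.

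Rsph9, a spoke head protein, had 4.88, 4.89 and 6.74 FPKM in cKO pools, against 3.84, 3.92 and 5.12 FPKM in control pools. Control pool 3 lay above cKO pools 1 and 2, so the groups overlapped; the mean was 5.50 ± 1.07 FPKM in cKO ovaries and 4.30 ± 0.714 FPKM in control ovaries (SD, n = 3 each). Its log2 change of 0.29 (SE 0.15) was the highest of the set. Rsph1, another head protein, had 3.06, 1.81 and 3.07 FPKM in cKO pools, against 2.20, 1.66 and 2.96 FPKM in control pools, and its groups overlapped (log2 change 0.16, SE 0.20). The remaining spoke genes were lower still: Rsph10b2 averaged 0.332 FPKM, Rsph4a 0.0848 FPKM and Rsph6a 0.0110 FPKM. Rsph10b2 stood highest in control pool 3, at 0.943 FPKM, with at most 0.531 FPKM elsewhere.

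Central pair genes of the set were all below the level tested. Spag16 averaged 0.470 FPKM, Spag6 0.210 FPKM, Hydin 0.0284 FPKM and Spag17 0.00740 FPKM over the 6 pools. The table's Spag6 is Spag6l in GENCODE M21. The ruler genes Ccdc39 and Ccdc40 were low and overlapped: Ccdc39 had 0.559, 1.08 and 1.00 FPKM in cKO pools, against 1.02, 1.36 and 0.780 FPKM in control pools. Ccdc40 had 0.742, 0.798 and 0.777 FPKM in cKO pools, against 0.646, 0.540 and 0.926 FPKM in control pools. Their log2 changes were -0.13 and 0.06, and Ccdc39 shares 1256 exon bases with Ttc14 on the opposite strand.

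Among tektins, Tekt2 had 1.06, 1.04 and 1.11 FPKM in cKO pools, against 0.573, 0.714 and 2.24 FPKM in control pools. The cKO pools lay between the control pools, and control pool 3 alone held 33.3% of the level summed over the 6 pools. Tekt1 had 1.00, 0.717 and 0.712 FPKM in cKO pools, against 0.855, 1.05 and 0.572 FPKM in control pools. Tekt4 averaged 0.423 FPKM, Tekt5 0.105 FPKM and Tekt3 0.0102 FPKM, and Tekt3 was listed at 0 in all 3 cKO pools.

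The 10 tested genes other than Fam183b and Dnajb13 had log2 changes of -0.13 to 0.29 with a median of 0.06, against a median of 0.05 over all tested genes, whose middle 90% ran from -0.41 to 0.51. Summed over the other 24 genes, the level was 70.4, 62.5 and 71.4 FPKM in cKO pools, against 62.5, 60.7 and 65.4 FPKM in control pools. With Fam183b and Dnajb13 included the sums were 72.7, 66.1 and 74.97 FPKM in cKO pools, against 90.9, 88.5 and 84.9 FPKM in control pools. The lower total of the whole set in cKO pools thus lay in these 2 genes.

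**Figure D3:**
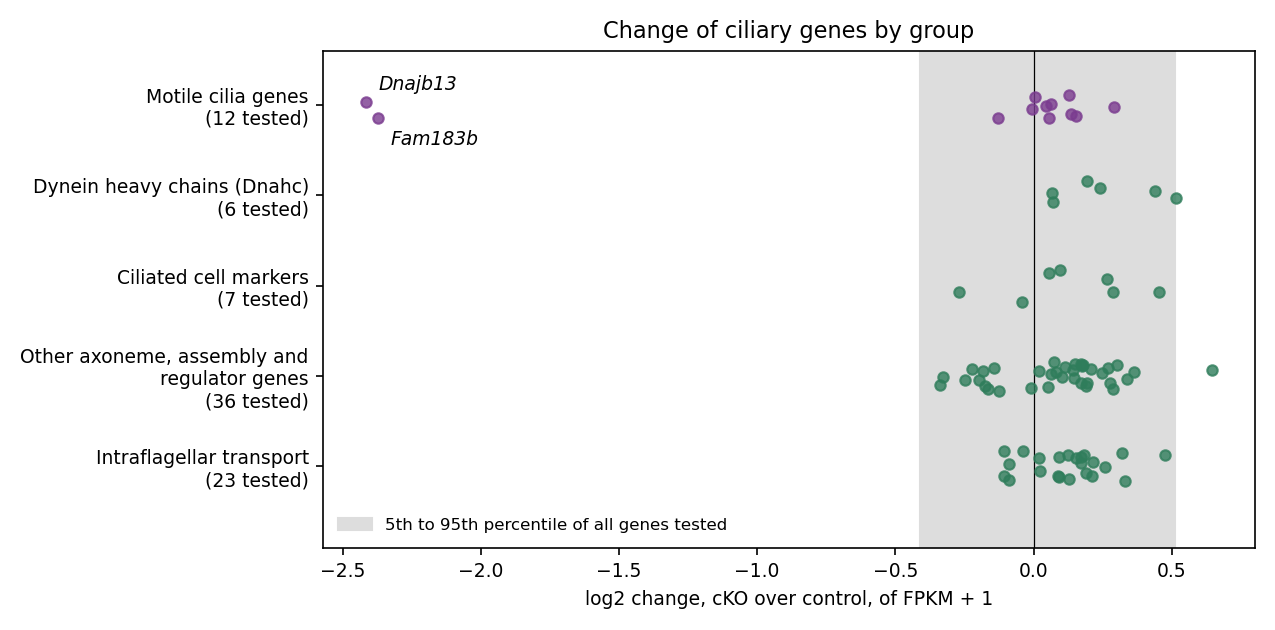
Log2 change of FPKM + 1, cKO over control, for each tested gene (points, spread vertically for sight only) of the motile cilia set, the Dnahc genes and 3 groups of other ciliary genes, with the 5th to 95th percentile of all tested genes in grey. Dnajb13 and Fam183b lie near -2.4, and the other 10 genes of the set lie between -0.13 and 0.29.

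Whether the genes of the set ranked the pools alike, as genes of 1 cell type at different shares would, was then compared. Of the 24 genes other than Fam183b and Dnajb13, 15 (62.5%) had their highest control value in control pool 3, where both Fam183b and Dnajb13 had their lowest control value. Among all tested genes 38.1% had their highest control value in that pool, and among 4783 genes averaging 0.05 to below 0.5 FPKM 49.6% did. Of the same 24 genes, 11 (45.8%) were highest of all 6 pools in control pool 3, against 12.5% of all tested genes and 24.0% of the low genes. In that pool 22.9% of 83 other ciliary genes, listed below, and 15.4% of the 13 Dnahc genes were highest of all 6. Their highest control value was there in 57.8% and 46.2%. Control pool 3 was singled out after the values were seen. The count of 11 lay mostly in untested genes. It was 2 of the 10 tested among these 24 genes and 9 of the 14 untested (64.3%). With Fam183b and Dnajb13 included it was 2 of the 12 tested genes of the set (16.7%). Of the untested, Hydin, Rsph6a, Tekt3 and Spag17 averaged below 0.05 FPKM, outside the range of the low genes used for comparison. The untested genes' summed level was 3.37, 2.37 and 3.25 FPKM in cKO pools, against 2.08, 1.97 and 4.49 FPKM in control pools.

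Shares of the 6-pool total give the same picture on a single scale, where an equal share is 16.7%. Fam183b had 2.7, 3.9 and 3.0% in cKO pools, against 34.7, 29.3 and 26.3% in control pools. Dnajb13 had 2.6, 4.4 and 4.9% in cKO pools, against 32.6, 34.6 and 20.9% in control pools. By contrast Rsph10b2 had 47.4% in control pool 3 and Dnaic1 had 53.8% in cKO pool 1. Control pool 3 was also the pool with the highest adipose sum and the lowest estimated depth, and the part of these in the ranks was not tested.

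**Figure D4:**
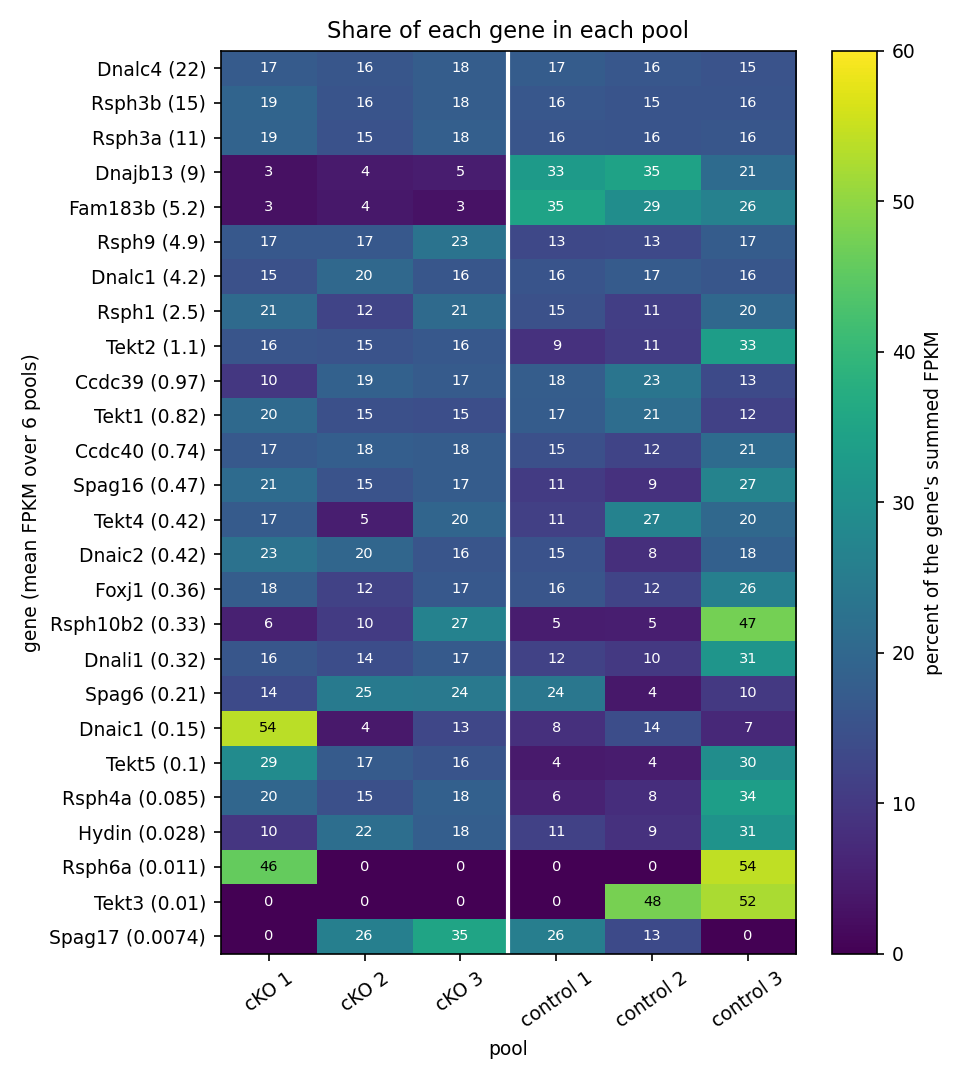
Share (percent, printed in each cell and shown by colour) of each gene's FPKM summed over the 6 pools that lay in each pool; rows are the 26 genes by falling mean FPKM (in brackets), and columns are cKO pools left of control pools. The rows of Fam183b and Dnajb13 are dark in all cKO columns, and control pool 3 holds the largest share in many of the lowest rows.

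Genes that mark multiciliated cells were at very different levels, and the list gave no single reading of that cell type. Of the 24 markers, 6 averaged at least 1 FPKM and 17 averaged under 0.5 FPKM. Sntn and Cdc20b were listed at 0 in all 6 pools, and Mcidas, an early switch for multiciliation, was above 0 only in cKO pool 1, at 0.0389 FPKM. Ccdc153 lay between 0.0477 and 0.346 FPKM, Tmem212 between 0.0770 and 0.418 FPKM and Gmnc between 0.0117 and 0.102 FPKM over all pools. These low markers were picked from the list after their values were seen, and Ccno was far above them in every pool.

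Of the list of 24 ciliated cell markers, 7 reached the tested level, 0 passed in either direction and 0 had an unadjusted p below 0.05. Ccno, a cyclin needed for centriole amplification, had 46.7, 40.6 and 76.5 FPKM in cKO pools, against 43.4, 48.6 and 39.1 FPKM in control pools (log2 change 0.27, adjusted p = 0.496). Cfap126, a basal body protein, had 10.8, 6.83 and 10.95 FPKM in cKO pools, against 7.78, 6.70 and 7.93 FPKM in control pools (0.29, adjusted p = 0.347). Nme5 and Ak7, nucleotide kinases of the axoneme, had log2 changes of -0.04 and 0.10 (adjusted p = 0.936 and 0.760). The summed level of the list was 67.8, 56.9 and 99.4 FPKM in cKO pools, against 59.1, 65.1 and 58.9 FPKM in control pools. Without Ccno and Cfap126, a split made after their values were seen, it was 10.4, 9.50 and 11.99 FPKM in cKO pools, against 7.996, 9.72 and 11.8 FPKM in control pools.

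The wider axoneme was tested through 86 other ciliary genes found of 87 listed: the markers above, regulators, dynein assembly factors, docking complex, nexin-dynein regulatory complex and other axoneme genes. Of these, 43 averaged at least 0.5 FPKM and 0 passed the limma test in either direction, while 2 were higher and 1 lower at an unadjusted p below 0.05, against 14.5% and 9.80% of all tested genes. The log2 changes of the 43 genes ran from -0.34 to 0.65 with a median of 0.11, and 30 were positive and 13 negative. Over all tested genes the median was 0.05, with 8735 changes positive and 6199 negative. Iqcg, a nexin-dynein regulatory complex gene, had 3.23, 1.59 and 2.67 FPKM in cKO pools, against 0.946, 1.36 and 1.27 FPKM in control pools. Its limma adjusted p, 0.102, was the lowest of the 43 genes. Efcab1, a calcium-binding protein of the docking complex group, had 0.786, 0.570 and 0.855 FPKM in cKO pools, against 1.09, 1.21 and 1.28 FPKM in control pools (log2 change -0.34, adjusted p = 0.172). Iqcg and 9230110C19Rik (Cfap300, a dynein assembly factor) were the 2 higher genes and Efcab1 the lower one, named after their values were seen.

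Dynein heavy chains are the motors of the arms. Of 13 Dnahc genes, 6 were tested and 0 passed limma's test in either direction. At an unadjusted p below 0.05, 2 were higher and 0 lower, against 14.5% and 9.80% of all tested genes. All 6 log2 changes were positive, from 0.07 to 0.52 with a median of 0.22, as were 8735 of the 14934 changes of all tested genes. The summed level of the 13 genes was 6.82, 7.13 and 6.58 FPKM in cKO pools, against 4.01, 4.51 and 5.41 FPKM in control pools. Among the 13, 4 had every cKO pool above every control pool (Dnahc1, Dnahc8, Dnahc10 and Dnahc17) and 1, Dnahc7a, the reverse. Of the 6 tested, 3 lay wholly above and 0 wholly below, against 2691 and 1789 of the 14934 tested genes. Dnahc7a, which was not tested, averaged 0.156 FPKM in cKO ovaries and 0.224 FPKM in control ovaries, and Dnahc6, also untested, averaged 0.0469 FPKM in cKO ovaries and 0.0626 FPKM in control ovaries. The Dnahc genes named were chosen after their values were seen.

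Dnahc17, an outer arm motor known from sperm, had 0.792, 0.783 and 0.806 FPKM in cKO pools, against 0.289, 0.270 and 0.409 FPKM in control pools (log2 change 0.44, SE 0.13, adjusted p = 0.1002). Dnahc9, the outer arm motor of ciliated epithelia, had 1.86, 1.93 and 1.07 FPKM in cKO pools, against 0.694, 0.580 and 1.21 FPKM in control pools (0.52, SE 0.20, adjusted p = 0.165). Its cKO pool 3 lay below control pool 3. Dnahc17 shares 93 exon bases with Pgs1 on the opposite strand.

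Intraflagellar transport genes, which every ciliated cell uses, were all above the tested level. Of 23 such genes 0 passed in either direction. At an unadjusted p below 0.05, 2 were higher and 0 lower, against 14.5% and 9.80% of all tested genes. The log2 changes of the 23 genes ran from -0.11 to 0.47 with a median of 0.13, and 18 of 23 were positive. Over all tested genes the median was 0.05, and 8735 of 14934 changes were positive. Ift20, which carries cargo from the Golgi, had a mean of 64.3 ± 0.682 FPKM in cKO ovaries and 63.5 ± 4.56 FPKM in control ovaries (SD, n = 3 each).

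Marker lists of other ovarian cell types held genes that passed the test, beside others that went the opposite way. Without cKO pool 1, control pool 1 or control pool 2, at most 1 gene of all tested was called higher and 4 lower. Of 13 granulosa genes 5 were called lower, 0 higher and 8 neither, against 2.09% lower and 2.24% higher of all tested genes. Of the granulosa log2 changes 9 were negative and 4 positive, against 6199 and 8735 over all tested genes. The summed level of the 13 granulosa genes was 2587, 2242 and 2665 FPKM in cKO pools, against 4435, 4036 and 3455 FPKM in control pools. Gja1, a gap junction protein, averaged 387 ± 24.6 FPKM in cKO ovaries and 793 ± 106 FPKM in control ovaries (SD, n = 3 each; log2 change -1.02, adjusted p = 0.0123). Inha, the inhibin alpha subunit, had a log2 change of -0.67 (adjusted p = 0.0387). Foxl2 and Kitl, a transcription factor and a ligand of granulosa cells, had positive log2 changes of 0.43 and 0.73 without overlap of the groups (adjusted p = 0.128 and 0.0854). The granulosa sum, like Fam183b and Dnajb13, was lowest among controls in control pool 3, and its part in their lower levels was not tested.

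Of 13 oocyte genes 4 were called higher, 0 lower and 9 neither, against 2.24% higher and 2.09% lower of all tested genes. Of the oocyte log2 changes 10 were positive and 3 negative, against 8735 and 6199 over all tested genes. The summed level of the 13 oocyte genes was 1718, 1399 and 2159 FPKM in cKO pools, against 1047, 1190 and 1147 FPKM in control pools. Zp2 and Zp3, proteins of the egg coat, had log2 changes of 0.89 and 0.78 (adjusted p = 0.0204 and 0.0454). Bmp15, an oocyte growth factor, averaged 31.4 FPKM in cKO ovaries and 47.2 FPKM in control ovaries (log2 change -0.67, adjusted p = 0.381), and Oosp1 and Dazl had log2 changes of -0.05 and -0.04. Of 10 theca and stroma genes 2 were called higher, 0 lower and 8 neither, against 2.24% higher and 2.09% lower of all tested genes. The theca and stroma genes called were Tcf21 and Pdgfra, with log2 changes of 0.55 and 0.81. In this list 8 log2 changes were positive and 2 negative, with a median of 0.47. The 2 negative genes were those of highest level, Hsd3b1 and Acta2, at -0.05 and -0.24 (adjusted p = 0.849 and 0.428).

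Markers of the oviduct epithelium and of the ovarian surface epithelium did not pass the test. Oviduct epithelium genes, 10 tested, had a summed level of 41.0, 106 and 65.6 FPKM in cKO pools, against 44.3, 52.2 and 57.9 FPKM in control pools. Much of each sum was Krt19, at 16.1, 54.2 and 32.6 FPKM in cKO pools and 21.9, 25.8 and 28.0 FPKM in control pools. Ovgp1 of the same list had 0.705, 5.33 and 1.09 FPKM in cKO pools, against 0.488, 2.37 and 0.470 FPKM in control pools. Of the 10 tested oviduct genes 0 passed in either direction. At an unadjusted p below 0.05, 3 were higher and 0 lower, against 14.5% and 9.80% of all tested genes. Krt19 and Epcam, the highest of the oviduct genes, had log2 changes of 0.28 and 0.39 (adjusted p = 0.689 and 0.486). Among 8 surface epithelium genes 0 passed in either direction, and 0 had an unadjusted p below 0.05. Upk3b and Krt8 had log2 changes of 0.08 and 0.24 (adjusted p = 0.937 and 0.322). The pool with the highest epithelial sums, cKO pool 2, had the highest Fam183b and the middle Dnajb13 level of its group. The part of these epithelia in the level of either gene was not tested. Of 6 adipose genes tested, Plin1 was called higher by limma (log2 change 0.91, adjusted p = 0.0231), as were 2.24% of all tested genes. Fabp4 was not called (-1.21, adjusted p = 0.0890). Of the 6 adipose log2 changes, 1, that of Plin1, was positive and 5 were negative.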

How the data were processed

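RNA sequencing libraries of whole ovary (3 cKO, 3 control) were analysed from the authors' deposited table of FPKM values per gene. The submitters' processing notes name TopHat2 2.0, Cufflinks 2.0 and mm10, with no role or order. Neither the strand setting nor the scaling of FPKM is given in the sources used here. FPKM are not counts, so no count model was used, and depth was estimated from values below 0.15 FPKM in genes with 1 transcript and at least 1500 exon bases, an estimate that limits the precision of every fragment number. Replicate numbers follow sample order and name pools only.

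All 37924 genes were read, and the 14934 averaging at least 0.5 FPKM over the 6 pools were fitted with limma 3.58.1 (R 4.3.3; lmFit, eBayes with trend) on log2(FPKM + 1), with genotype as the only term and two-sided Benjamini-Hochberg adjusted p below 0.05. A fold on this scale understates the change of low genes. P-values set the difference between genotypes against the spread between pools, with each gene's variance drawn towards a trend over all genes. The fit was tested on simulated data with normal noise. A change of 1 log2 unit was recovered in 82 of 100 genes and 1 of 2 units in 98 of 100, with 9 false calls. Only genes of higher level were changed there, so recovery of changes in low genes was not tested. Coordinates, exons and names came from GENCODE M21 by gene ID, and promoters from RefSeq.

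Levels in every pool are given for genes of the set averaging at least 1 FPKM and for Fam183b, Dnajb13 and Foxj1, and for some lower ones chosen after their values were seen. The members and lists were chosen with earlier results of these data known, and the Dnahc group and the motif spellings after the file or promoters had been read. Alternatives were a pseudocount of 0.1, no filter, a filter at 2 FPKM, median centring and leaving out each pool. The deleted gene's own result is not reported here.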

Additional observations from a re-analysis of the deposited data

How the results depend on the processing

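Without the filter on low values, 4 genes were called higher and 24 lower, and 1 gene of the set, Fam183b, was called lower. Centring on the library median gave 577 genes lower. Over the settings that left out 1 pool, 0 to 307 genes were called higher and 2 to 353 lower, and 1 to 2 genes of the set lower. The median log2 change of the tested genes of the set was 0.03 to 0.08 in those settings. The cause was not tested, beyond the smaller number of pools. Over all 10 alternatives the log2 change was -3.11 to -2.27 for Fam183b and -2.84 to -2.24 for Dnajb13. Dnajb13 was not called in 4: no filter, and without cKO pool 1, control pool 1 or control pool 2. As the set was proposed for these decreases, their calls are given as counts and support nothing. In these 10 alternatives 0 genes of the set were called higher, and 0 of the other ciliary genes were called by limma in either direction, with 1 to 5 higher and 0 to 4 lower at an unadjusted p below 0.05. No paired analysis was possible because no label numbers the pools or links a cKO pool to a control pool. Many genes under 0.5 FPKM rest on few fragments, which limits the differences that can be detected in them at this depth. Long genes can be exceptions, as FPKM is a level per gene length. Dnahc11 averaged 0.336 FPKM and had an estimated 29.8 to 253 fragments in a pool.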
